A study of Homo sapiens with 6 samples.

Results

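The genes described here are 6 genes of the human ATG8 family, whose proteins are attached to the growing autophagosome membrane, and 4 cargo receptors that bind them. The members were taken by gene name from the table of all genes. They are 10 of its 62710 genes: the 6 ATG8 genes GABARAP, GABARAPL1, GABARAPL2, MAP1LC3A, MAP1LC3B and MAP1LC3B2, and the 4 receptor genes SQSTM1, NBR1, OPTN and TAX1BP1. MAP1LC3C, a further ATG8 gene, was not among them and is left out of all shares given here; it had 1, 3 and 1 counts in the sh-NC libraries and 0, 0 and 2 in the sh-IGF2BP3 libraries. They were measured by RNA sequencing in HCT116, a colon cancer cell line, in 6 libraries. The 3 sh-NC libraries came from cells labelled as negative control, which carried a scrambled short hairpin RNA, and the 3 sh-IGF2BP3 libraries from cells carrying a hairpin against IGF2BP3, an RNA-binding protein that recognises m6A-marked transcripts. Per the methods of the study, both lines were made by lentiviral infection, and the knockdown line rested on a single hairpin sequence, so an effect of that hairpin on other transcripts and an effect of less IGF2BP3 cannot be told apart. Nothing in the labels says that the 3 libraries of a group came from separate cultures, so each p-value and SD given here measures the spread between these libraries, which may be technical. The members were chosen with the difference between the groups in view, GABARAP above all, so their group differences are given as a description, and a count of members past a threshold is independent evidence of nothing.

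In autophagy, a cell wraps part of its own content in a double membrane and delivers it to the lysosome. ATG8 proteins are cut behind a glycine near their end by ATG4 proteases, and that glycine is then joined to the lipid phosphatidylethanolamine by ATG7, ATG3 and the ATG12-ATG5-ATG16L1 complex. The lipid-bound ATG8 protein recruits receptors that carry a short LC3-interacting region, and these receptors bring ubiquitin-tagged cargo to the membrane. The GABARAP and LC3 subfamilies are both made this way, and receptors such as SQSTM1 are themselves degraded with the cargo, so that protein and transcript levels of this family need not move together.

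The ends of the coding sequences are shown because the position of the glycine separates the family at the sequence level. Each line gives the last 10 codons, stop codon included, read from the GENCODE 29 transcripts (GRCh38), with the glycine codon in capitals.
GABARAP: tacagtgacgaaagtgtctacGGTctgtga
GABARAPL1: tacagtgatgagagtgtctatGGGaaatga
GABARAPL2: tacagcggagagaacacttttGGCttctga
MAP1LC3A: tacgcctcccaggaaaccttcGGCttctga
MAP1LC3B: gagacgttcGGGatgaaattgtcagtgtaa
MAP1LC3B2: gagacgttcGGGatgaaattgtcagtgtaa
In GABARAP, GABARAPL1 and GABARAPL2 the glycine is codon 116 of 117, and in MAP1LC3A codon 120 of 121, so that 1 codon lies between it and the stop codon. In MAP1LC3B and MAP1LC3B2 it is codon 120 of 125, with 5 codons after it. The coding sequences of GABARAP and GABARAPL1 were identical at 76.8% of their 354 bases, with 14 bases as the longest identical stretch, whereas GABARAP and GABARAPL2 were identical at 62.4%.

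MAP1LC3B and MAP1LC3B2 differed at only 2 of 378 coding bases. The differences are C30G and A338G, counted from 1 at the first base of the start codon, with the MAP1LC3B base first. They are shown with 10 bases on either side and the differing base in capitals. A read that lies wholly within the coding sequence can be assigned to either gene only where it crosses such a place.
MAP1LC3B at C30G: tcaagcagcgCcgcaccttcg
MAP1LC3B2 at C30G: tcaagcagcgGcgcaccttcg
MAP1LC3B at A338G: tacatggtctAtgcctcccag
MAP1LC3B2 at A338G: tacatggtctGtgcctcccag
The longest identical stretch of the 2 coding sequences was 307 bases. Over whole transcripts, the 2 genes shared 265 stretches of 50 bases, which were 15.1% of those of MAP1LC3B2 and 4.82% of those of MAP1LC3B. How reads from such stretches were counted is not given in the sources used here, so the split of counts between MAP1LC3B and MAP1LC3B2 is uncertain.

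The libraries held between 16146718 and 23576469 counts. The targeted gene IGF2BP3 had 90.3, 84.1 and 70.3 CPM (counts scaled to a common library size, but not to gene length) in the sh-NC libraries and 60.2, 52.3 and 55.8 CPM in the sh-IGF2BP3 libraries. Its knockdown mean was 0.687 times the control mean, with every knockdown library below every control library and a log2 fold change of -0.54 (SE 0.181, adjusted p = 0.126, edgeR's quasi-likelihood test with Benjamini-Hochberg adjustment). The cells carried the epithelial markers of a colon line: all 6 genes of that list (EPCAM, CDH1, KRT8, KRT18, KRT19, CLDN4) were measured, with summed levels of 2241 to 3948 CPM in sh-NC and 3327 to 4407 CPM in sh-IGF2BP3. Of 9 immune, endothelial and fibroblast markers 3 passed the filter on low counts, with sums of 30.1 to 52.2 and 32.3 to 62.6 CPM that were mostly COL1A1, while COL1A2 was at 0 in every library and PTPRC reached 1 count. In bulk RNA, fewer cells with a transcript and less transcript per cell cannot be told apart.

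Levels of different genes were compared as FPKM, the deposited value, which is scaled by the length of the gene and by the depth of the library. Of the 10 members, SQSTM1 had the highest level in sh-NC and GABARAP and MAP1LC3A the lowest. SQSTM1, the receptor also called p62, had a mean of 29.9 FPKM ± 5.68 (SD, n = 3), above 92.9% of the 16753 genes that passed the filter on low counts. MAP1LC3B followed with 19.9 FPKM ± 0.984 (SD, n = 3). NBR1, TAX1BP1, GABARAPL2, GABARAPL1 and OPTN came next, from 15.01 down to 6.49 FPKM on average, and each of these overlapped its neighbour in that order over the 3 libraries, so that their order is not resolved. MAP1LC3B2 stood below them at 1.90 FPKM ± 0.882 (SD, n = 3). GABARAP was lower still at 0.367 FPKM ± 0.190 (SD, n = 3), above only 10.1% of the genes that passed the filter. Other annotated genes cover its exons, as described below, and reads there may have been left out, so its place in this order is uncertain. In sh-IGF2BP3 the order was kept except that the mean of GABARAP, 2.60 FPKM ± 1.45 (SD, n = 3), stood above that of MAP1LC3B2, 1.08 FPKM ± 0.212 (SD, n = 3), although their libraries overlapped.

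**Figure D1:**
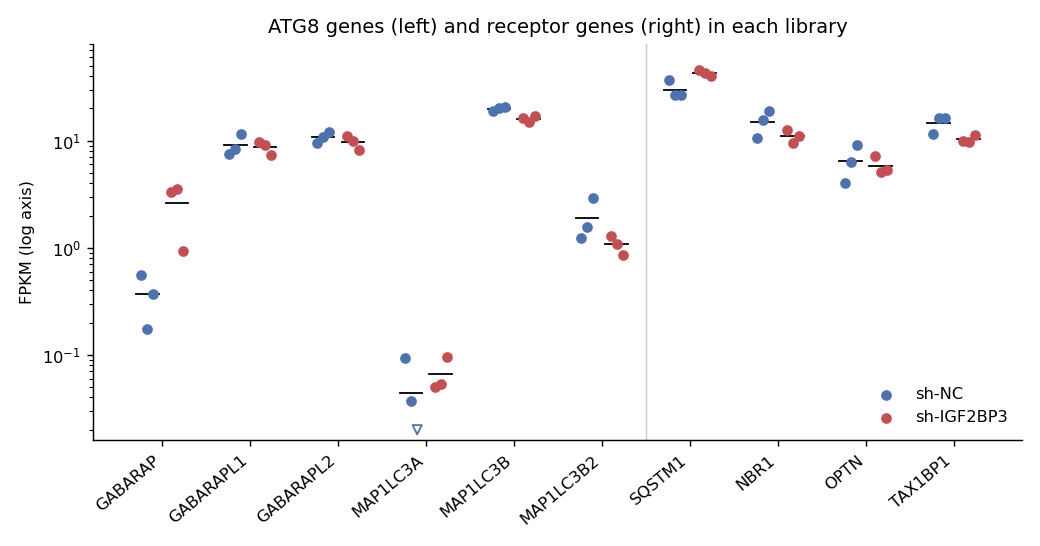
FPKM on a log axis for each of the 10 members, with 1 point per library (3 sh-NC, 3 sh-IGF2BP3), the ATG8 genes left and the receptors right of the grey line; black bars are group means and the open triangle is a value of 0. GABARAP lies between 0.174 and 0.555 FPKM in sh-NC and between 0.929 and 3.56 FPKM in sh-IGF2BP3, below GABARAPL1 and GABARAPL2 in all 6 libraries.

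Of the 10 members, 9 passed the filter on low counts. The gene left out was MAP1LC3A, an LC3 gene with 2, 1 and 0 counts in the sh-NC libraries and 1, 1 and 2 in the sh-IGF2BP3 libraries. Its count of 0 in sh-NC 3 allows up to 3 counts there, or 0.153 CPM, so no difference between the groups was detectable at this depth. GABARAP passed the filter only with its sh-IGF2BP3 libraries. Its 8 counts in sh-NC 2 were too few for the control libraries alone to pass it.

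GABARAP, the ATG8 protein that gives its subfamily its name, had 20, 8 and 13 counts in sh-NC 1, 2 and 3 and 113, 112 and 33 counts in sh-IGF2BP3 1, 2 and 3. As FPKM these were 0.555, 0.174 and 0.372 in the control and 3.32, 3.56 and 0.929 in the knockdown. All 3 knockdown libraries were above all 3 control libraries, but sh-IGF2BP3 3 stood apart from the other 2 and close to sh-NC 1. With exact Poisson 95% intervals, which cover counting error only, sh-IGF2BP3 3 had 1.87 CPM (1.29 to 2.63) and sh-NC 1 had 1.13 CPM (0.689 to 1.74), so these 2 libraries overlapped within counting error, whereas sh-IGF2BP3 1 had 6.46 CPM (5.32 to 7.77). The group means were 0.708 ± 0.401 and 5.22 ± 2.93 CPM (SD, n = 3 each), a ratio of 7.38 and a log2 fold change of 2.90 (SE 0.530).

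GABARAPL1, the closest paralog by coding sequence, is an ATG8 gene known as a target of FOXO factors. It had 7.58, 8.40 and 11.6 FPKM in the sh-NC libraries and 9.65, 9.17 and 7.32 FPKM in the sh-IGF2BP3 libraries. The groups overlapped, with means of 36.0 ± 5.95 and 36.3 ± 4.90 CPM and a log2 fold change of 0.011 (SE 0.200). GABARAPL2, also known as GATE-16, had 9.42, 10.8 and 11.99 FPKM in sh-NC and 10.98, 9.92 and 8.12 FPKM in sh-IGF2BP3. Here too the groups overlapped, with a log2 fold change of -0.072 (SE 0.195). The ratio of GABARAPL2 to GABARAPL1 in FPKM stayed between 1.04 and 1.29 in the 6 libraries.

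MAP1LC3B encodes LC3B, the ATG8 protein most used to follow autophagosomes. It had 18.8, 20.3 and 20.7 FPKM in sh-NC and 16.4, 14.8 and 17.1 FPKM in sh-IGF2BP3. All 3 knockdown libraries were below all 3 control libraries, by a small step: the means were 98.0 ± 2.10 and 83.4 ± 5.32 CPM, and the log2 fold change was -0.23 (SE 0.172). MAP1LC3B2, its near-identical copy on chromosome 12, had 1.24, 1.56 and 2.90 FPKM in sh-NC and 1.28, 1.09 and 0.856 FPKM in sh-IGF2BP3. In CPM, which is scaled by the effective library size, the groups did not overlap (means 3.51 ± 1.40 and 2.13 ± 0.386, log2 fold change -0.72, SE 0.368), but in FPKM sh-NC 1 was below sh-IGF2BP3 1. MAP1LC3B exceeded MAP1LC3B2 by 7.15 to 15.2 times in FPKM over the control libraries and by 12.8 to 20.0 times over the knockdown libraries.

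SQSTM1 was the receptor with a higher level in the knockdown. It had 36.5, 26.5 and 26.9 FPKM in sh-NC and 45.8, 43.1 and 40.3 FPKM in sh-IGF2BP3. The groups did not overlap, and sh-NC 1 was the control library nearest to the knockdown. In CPM the means were 222 ± 56.3 and 334 ± 17.2, with a log2 fold change of 0.59 (SE 0.204). SQSTM1 has a GC content of 58.0% against a median of 48.7% over the genes tested, and with the trends of each library with GC content and length removed its log2 fold change was 0.28 (SE 0.182) and its groups overlapped. Other annotated genes, mainly MRNIP on the opposite strand, cover 22.04% of its exonic bases, and whether counting used strand is not given in the sources used here.

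The other 3 receptors had lower means in the knockdown. TAX1BP1, a ubiquitin receptor that also serves in selective clearance of protein aggregates, had 11.6, 16.2 and 16.4 FPKM in sh-NC and 10.01, 9.81 and 11.3 FPKM in sh-IGF2BP3. Its groups did not overlap, and sh-NC 1 was again the control library nearest to the knockdown (means 131 ± 17.8 and 97.9 ± 8.04 CPM, log2 fold change -0.42, SE 0.183). NBR1, a receptor that works together with SQSTM1, had 10.5, 15.7 and 18.7 FPKM in sh-NC and 12.5, 9.57 and 11.1 FPKM in sh-IGF2BP3. The groups overlapped through sh-NC 1, at a log2 fold change of -0.35 (SE 0.200). OPTN, the optineurin gene, whose product is a receptor for damaged mitochondria and bacteria, had 4.00, 6.31 and 9.16 FPKM in sh-NC and 7.13, 5.10 and 5.36 FPKM in sh-IGF2BP3. Its control libraries spanned the whole range of the knockdown libraries, and the log2 fold change was -0.052 (SE 0.242). The ratio of SQSTM1 to NBR1 in FPKM was 3.46, 1.68 and 1.43 in sh-NC and 3.67, 4.51 and 3.64 in sh-IGF2BP3.

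**Figure D2:**
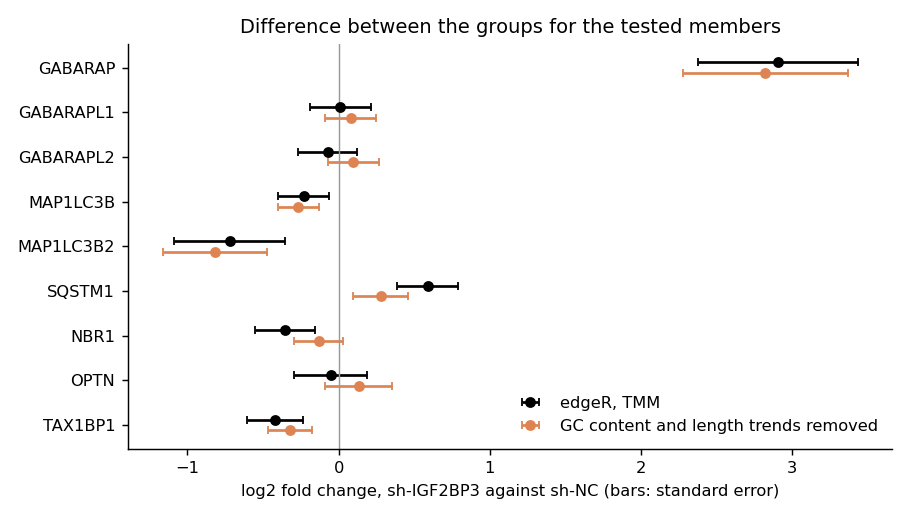
Log2 fold change of sh-IGF2BP3 against sh-NC for the 9 members that passed the filter, with bars of 1 standard error, from edgeR with TMM scaling (black) and with each library's trends with GC content and length removed (orange). GABARAP lies at 2.90 and 2.82, SQSTM1 moves from 0.59 to 0.28, and the other 7 lie between -0.82 and 0.13 in both.

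A gene was called where edgeR's quasi-likelihood test gave it an adjusted p under 0.05 and a change of more than 1.5 fold. By this rule 0 of the 9 members were called in either direction. The same held for all genes tested, with 0.0% called higher and 0.0% called lower. At an unadjusted p under 0.05 in edgeR, 2 members were higher (GABARAP and SQSTM1) and 1 was lower (TAX1BP1), where 13.6% of all genes tested were higher and 8.54% lower. Groups that did not overlap in CPM were found for 2 members in the higher direction (GABARAP and SQSTM1) and for 3 in the lower direction (MAP1LC3B, MAP1LC3B2 and TAX1BP1), where the shares of all genes tested were 13.2% and 11.0%. DESeq2 with the same thresholds called 1 member higher (GABARAP) and 0 lower, where it called 4.48% of genes higher and 1.06% lower. These counts are a description, since the members were chosen on this contrast and GABARAP passed the filter only with the libraries where it is high. The median log2 fold change of the 9 members was -0.072, beside -0.014 over all genes tested. The number of members called higher in edgeR depended on single libraries: it was 2 (GABARAP and SQSTM1) without sh-NC 1, 1 (GABARAP) without sh-NC 3 and 1 (GABARAP) without sh-IGF2BP3 3, and over all genes 1739 were called higher without sh-NC 1, 5 without sh-NC 3 and 214 without sh-IGF2BP3 3.

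Set against its paralogs, GABARAP took a larger share of the summed FPKM of the 6 ATG8 genes in the knockdown. It made up 1.47%, 0.421% and 0.783% in the sh-NC libraries and 7.96%, 9.22% and 2.70% in the sh-IGF2BP3 libraries. Other annotated genes cover exons of GABARAP, and how reads there were counted is not given in the sources used here. These shares therefore need not equal shares of the transcripts. The sum itself overlapped between the groups, at 37.7, 41.3 and 47.6 FPKM in sh-NC and 41.6, 38.6 and 34.4 FPKM in sh-IGF2BP3. MAP1LC3B held 49.9%, 49.1% and 43.6% of it in sh-NC and 39.3%, 38.3% and 49.7% in sh-IGF2BP3, so the share of MAP1LC3B in sh-IGF2BP3 3 was like that of the control libraries. GABARAPL1 and GABARAPL2 held between 20.1% and 26.4% each in every library.

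**Figure D3:**
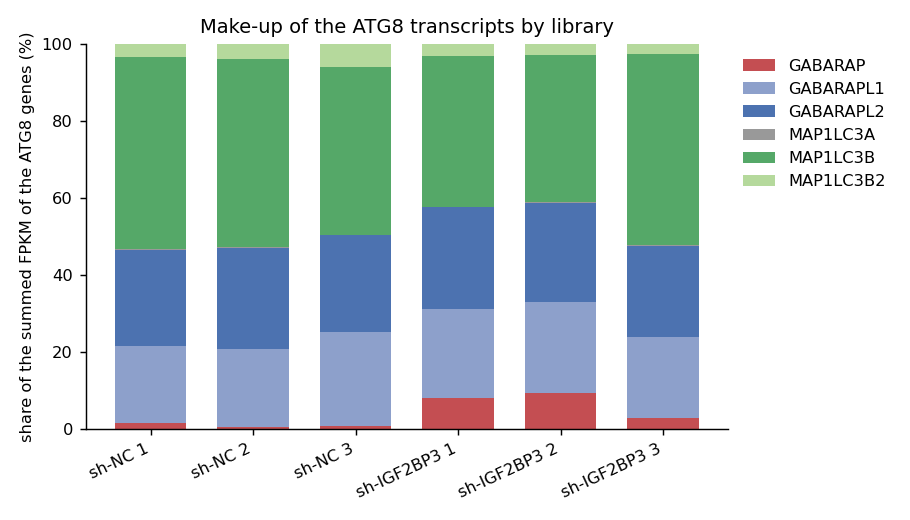
Share of each of the 6 ATG8 genes in their summed FPKM, as stacked bars in percent, for the 3 sh-NC and the 3 sh-IGF2BP3 libraries. GABARAP, at the bottom in red, takes 0.421% to 1.47% in sh-NC, 7.96% and 9.22% in sh-IGF2BP3 1 and 2, and 2.70% in sh-IGF2BP3 3.

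GABARAPL1 exceeded GABARAP by 13.7, 48.3 and 31.1 times in FPKM in the sh-NC libraries and by 2.91, 2.58 and 7.88 times in the sh-IGF2BP3 libraries. On the log2 scale of FPKM, GABARAP minus the mean of the 4 other ATG8 genes that passed the filter was -3.53, -5.40 and -4.68 in sh-NC and -1.05, -0.80 and -2.55 in sh-IGF2BP3, and the groups did not overlap. The group means of these differences were -4.53 ± 0.944 and -1.47 ± 0.945 (SD, n = 3 each), 3.07 apart. With log2(FPKM + 1), which shrinks low values, they were 1.54 apart.

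The GABARAP locus was examined because the levels of GABARAP were low and other annotated genes cover its exons. The deposited table places GABARAP (ENSG00000170296) on chromosome 17 from 7240008 to 7242449 on the minus strand of GRCh38. ENSG00000262526, a protein-coding gene on the same strand from 7240427 to 7244635, covers 30.5% of the exonic bases of GABARAP in GENCODE 29 (691 of 2266) and 74.4% of its coding bases before the stop codon (261 of 351). It had 0 counts in all 6 libraries. ENSG00000279641 is an unconfirmed gene model on the opposite strand from 7242200 to 7243814. In GENCODE 29 it covers 25.2% of the exonic bases and 25.6% of the coding bases of GABARAP. Together the 2 genes cover 100% of those coding bases and 55.7% of the exonic bases. GENCODE 29 places GABARAP from 7240014 to 7242770, which reaches beyond the deposited table. The deposited FPKM values rest on a length of 1951 bases for GABARAP, against 2266 exonic bases in GENCODE 29. Shares in the gene model behind the deposited counts were not computed and may differ. ENSG00000279641 had 30, 7 and 6 counts in sh-NC and 5, 25 and 10 in sh-IGF2BP3, so its groups overlapped.

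**Figure D4:**
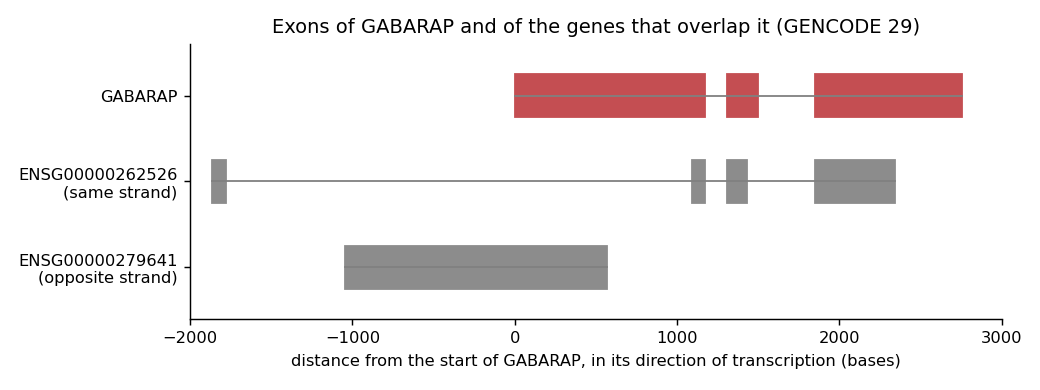
Exons of GABARAP (red, all transcripts merged) and of the 2 annotated genes that overlap it (grey), by distance in bases from the start of GABARAP in its direction of transcription. The gene on the same strand covers parts of each of the 3 merged exon blocks, and the gene on the opposite strand covers the first 571 bases.

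Such an overlap was uncommon among the protein-coding genes tested. Of 13118 with a value, 386 (2.94%) had at least as large a share of exonic bases inside other genes on their own strand, and 244 (1.86%) on either strand. None of the other 9 members had exonic bases inside another gene on its own strand. Of the stretches of 50 bases in GABARAP transcripts 48.9% also occur in transcripts of other genes, against 20.3% for SQSTM1, 15.1% for MAP1LC3B2 and at most 6.85% for the other 7 members. Matches to the opposite strand are included in these shares. Counting tools often leave out reads that fall in more than 1 gene, and the part of this overlap in the low counts of GABARAP, and in their difference between the groups, was not tested.

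The genes whose log2 CPM followed GABARAP most closely over the 6 libraries were chosen from 9797 genes with a mean of at least 10 CPM. They were TATDN2 (Pearson r = 0.997), B4GALNT4, an N-acetylgalactosaminyltransferase (r = 0.996), CLASRP, which interacts with the splicing kinase CLK4 (r = 0.996), LZTS2 (r = 0.994) and AP4M1, a subunit of the AP-4 adaptor that sorts ATG9A (r = 0.993). With 6 points, the same libraries on both axes and the best of 9797 genes taken, these values are a description. Each of them was highest in sh-IGF2BP3 1 and 2 and lowest in sh-NC 2, as GABARAP was, but over a narrower range: TATDN2 had 17.7, 14.2 and 15.8 CPM in sh-NC and 23.1, 24.6 and 19.0 CPM in sh-IGF2BP3. Their GC content was 54.1% to 66.7%, against 49.8% for GABARAP. Other genes on the same strand cover 52.5% of the exonic bases of TATDN2 and none of those of the other 4, and on either strand they cover 29.7% of those of AP4M1. Among the members, the same measure with GABARAP was 0.89 for SQSTM1, 0.29 for GABARAPL1 and 0.03 for GABARAPL2. It was -0.09 for OPTN, -0.51 for MAP1LC3B2, -0.70 for NBR1, -0.95 for MAP1LC3B and -0.96 for TAX1BP1. These values too are a description, since the members were chosen on the contrast between the same libraries.

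For the rest of the pathway, 72 other autophagy genes were listed by role, and all 72 passed the filter. They lay about evenly on both sides of 0: 37 were higher and 35 lower in the knockdown, with a median log2 fold change of 0.014 beside -0.014 over all genes tested. In edgeR 0 of them were called in either direction. At an unadjusted p under 0.05 in edgeR 9 were higher and 9 lower, beside 13.6% and 8.54% of all genes tested. Groups that did not overlap were found for 9 in the higher and 6 in the lower direction, beside 13.2% and 11.0% of all genes. DESeq2 called 1 higher (ATG101) and 1 lower (RB1CC1) of the 71 with an adjusted p, beside 4.48% and 1.06%.

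By role, the conjugation genes that process and attach ATG8 proteins (11 genes) had 6 higher and 5 lower, with a median log2 fold change of 0.037. The PI3-kinase complex, which marks the site of membrane growth (8 genes), had 4 on each side and a median of -0.035. The genes of membrane supply (10) had a median of 0.063. The other cargo receptors and adaptors (18) had 9 on each side and a median of -0.022, the genes of fusion with the lysosome (14) had 7 on each side and a median of 0.040, and the regulators (6) had 3 on each side and a median of 0.11. The initiation complex (5 genes) had 2 higher and 3 lower and a median of -0.18. Groups that did not overlap were found in the higher direction for 4 genes of fusion with the lysosome, 2 of conjugation, 2 of the other receptors and 1 regulator. Over all genes tested the share in that direction was 13.2%. In the lower direction they were found for 2 genes of membrane supply and for 1 each of the initiation complex, the PI3-kinase complex, the other receptors and fusion with the lysosome. The share of all genes tested was 11.0% there. With so few genes per role, these counts are a description.

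Of these genes, the ones with the smallest p in each direction included a pair from the same initiation complex. RB1CC1, the scaffold also called FIP200, had 68.4, 85.8 and 101 CPM in sh-NC and 46.1, 47.7 and 54.97 CPM in sh-IGF2BP3 (log2 fold change -0.78, SE 0.194, adjusted p = 0.103 in edgeR). ATG101, which stabilises ATG13 in that complex, had 30.0, 17.2 and 14.8 CPM in sh-NC and 44.9, 40.5 and 29.1 CPM in sh-IGF2BP3, and its groups overlapped at sh-NC 1 (log2 fold change 0.89, SE 0.264, adjusted p = 0.112 in edgeR). Neither passed the threshold in edgeR, and both did in DESeq2. With the trends with GC content and length removed the log2 fold changes were -0.37 for RB1CC1 (GC content 37.6%) and 0.45 for ATG101 (59.8%).

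The other named genes were FKBP8, a mitophagy receptor, VPS18, a subunit of the tethering complexes of late endosomes and lysosomes, ATG2B, a lipid transfer protein, and CALCOCO2, the receptor NDP52. FKBP8 had a log2 fold change of 0.70 (SE 0.227, adjusted p = 0.123 in edgeR), which became -0.0075 with the trends with GC content and length removed. VPS18 had 0.60 (SE 0.194, adjusted p = 0.122 in edgeR), which became 0.25. ATG2B had -0.62 (SE 0.202, adjusted p = 0.124 in edgeR), which became -0.22, and CALCOCO2 had -0.44 (SE 0.183, adjusted p = 0.182 in edgeR), which became -0.24. Their GC content was 66.6% for FKBP8, 60.6% for VPS18, and 44.2% for both ATG2B and CALCOCO2. The median over the genes tested was 48.7%. Removing the trends also takes out any group difference that follows GC content or length. The part of GC content in these differences was not tested.

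**Figure D5:**
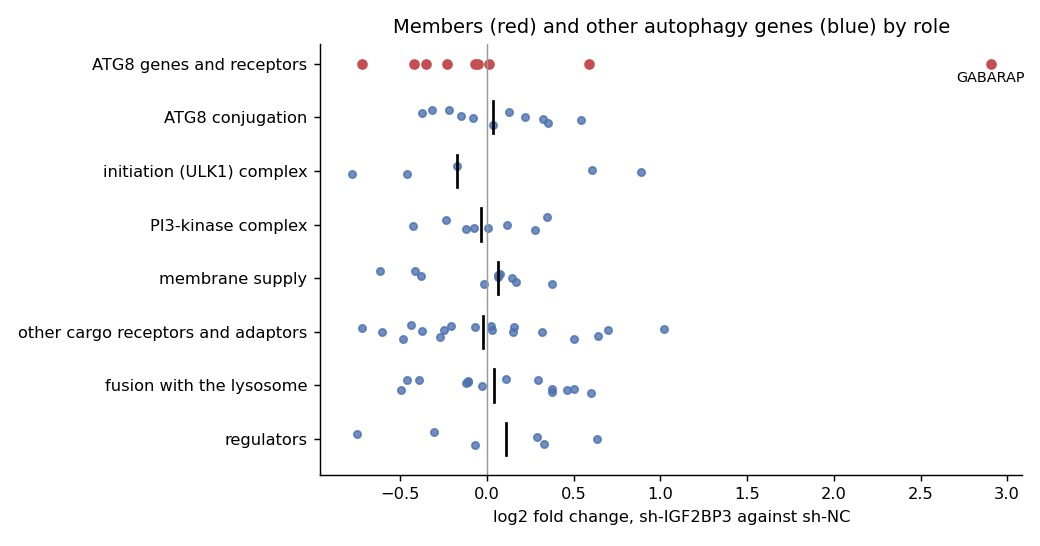
Log2 fold change of sh-IGF2BP3 against sh-NC for the 9 tested members (red, top row) and for 72 other autophagy genes (blue) by role, with 1 point per gene, shifted vertically at random for visibility; black bars are medians of the roles. GABARAP lies at 2.90, and the medians of the roles lie between -0.18 and 0.11.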

How the data were processed

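The deposited files were gene counts and, for the same 6 libraries, FPKM values (scaled by gene length and library depth), both made by the authors. Total RNA was extracted with Trizol and libraries were made with a TruSeq kit. The submitters' processing notes name CASAVA and GRCh38; the aligner, the counter and its strand setting are not given in the sources used here. The deposited FPKM values fit 1 length per gene in 20969 of 20969 genes with a value in every library, within 0.1%.

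Counts were fitted in R 4.3.3 with edgeR 4.0.16 (filterByExpr, TMM, quasi-likelihood test, Benjamini-Hochberg adjustment over 16753 genes), without a further term; a call needed an adjusted p under 0.05 and a change of more than 1.5 fold. CPM uses TMM-scaled library sizes. Alternatives were DESeq2 1.42.0, limma 3.58.1 on log2(FPKM + 1), other filters, a replicate block, each library left out, and removal of each library's spline trend (5 degrees of freedom) with GC content and length from GENCODE 29, known for 96.9% of tested genes. The fit was tested on simulated data with the same dispersion for every gene and no trend with GC content. That test therefore does not cover the spread between these libraries. The members and gene lists were chosen with earlier results of these data known. Named genes were all members, the 3 higher and 3 lower other autophagy genes with the smallest p and any past the thresholds, the 5 genes most like GABARAP, and IGF2BP3. Sequences were read from the GENCODE 29 transcripts.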

Additional observations from a re-analysis of the deposited data

How the results depend on the processing

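The log2 fold change of GABARAP was above 0 in all 15 alternatives that gave a value (1.31 to 3.40; it failed the filter of 10 counts in every library), and MAP1LC3B, MAP1LC3B2, NBR1, TAX1BP1 and SQSTM1 kept their direction in all 16. Calls were less stable. With DESeq2, 566 genes were called higher and 134 lower; without a filter on low counts 687 and 150; with RLE scaling 1 higher and with a minimum of 10 counts per library 1 higher; with limma on log2(FPKM + 1) 1 lower. Members called higher were 1 (GABARAP) with DESeq2 and 1 without a filter, and the other autophagy genes 1 higher and 1 lower in both. With 1 library left out at a time there were 0 to 1739 genes called higher and 0 to 985 lower, 0 to 2 members higher, and 0 to 8 other autophagy genes higher and 0 to 7 lower, the highest of each without sh-NC 1.

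With GC content and length trends removed, 1 member in place of 2 had higher groups without overlap. In the lower direction it was 3 members there, as in the reported setting. That count was 2 with log2(FPKM + 1) and 4 without sh-NC 1. Shares of all genes in these settings are not given here, so the counts are a description. The median of the other autophagy genes was -0.046, -0.050 and -0.056 with limma on log2(FPKM + 1), log2(FPKM + 0.1) and log2(FPKM + 1) without a filter, and -0.068 to 0.063 with a library left out. GABARAP relative to the other ATG8 genes was 1.54 with log2(FPKM + 1) in place of 3.07. Members near 0 changed sign: GABARAPL1 was -0.0056 with 10 counts in every library, -0.057 (pseudocount 1, with or without a filter) and -0.061 (0.1) with limma, and -0.061 to 0.13 with a library left out; GABARAPL2 was 0.097 with the GC content and length trends removed and 0.079 with the replicate block as well, and -0.14 to 0.027 with a library left out; OPTN was 0.13, 0.15 and -0.27 to 0.20 in the same settings. The causes were not tested.

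The study describes the sequenced cells as 3 control and knockdown pairs, while the labels give only replicate numbers. Deviations of same-numbered libraries from their group means correlated at -0.28, -0.19 and -0.043. With so few libraries per group, these correlations cannot settle whether the numbers mark pairs. With the replicate block 0 genes were called and GABARAP was at 2.79. The 8 to 20 control counts of GABARAP limit its fold change.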
